A study of Mus musculus with 19 samples.

Results

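Single blastocysts from 2 mouse crosses were compared, 3 from the Gabpb1 cross and 3 from the Alyref cross, chosen by their labels as embryos that are not knockouts (non-KO) at 96 hours after insemination. These 6 embryos are part of a series of 19 single embryos, and the comparison runs over all 53379 gene rows outside the ERCC spike-ins. The Gabpb1 cross was an in vitro fertilisation between Gabpb1+/- parents and the Alyref cross one between Alyref+/- parents, with the label B6D2F1 for strain. A non-KO embryo of either cross may be wild type or heterozygous, and the labels do not say which, so each group may mix both genotypes. Embryos called knockouts lacked reads over the deleted region in the submitters' libraries, a check that counts per gene do not allow here. All embryos were grown in KSOM, a medium for preimplantation embryos, and 3 blastocysts from wild-type (WT) B6D2F1 parents served as the reference. For the earlier stage, 3 non-KO morulae of the Alyref cross and 2 of the Gabpb1 cross were read, which were also collected at 96 hours. The labels do not tie embryos to parents or fertilisation sessions, so cross cannot be told apart from session or parents. The p-values for genes measure spread between embryos within groups, not between sessions. In the main fit that spread is estimated over 7 groups of all 19 embryos, knockout and other morulae included, not from the 6 compared embryos alone.

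The blastocyst holds an outer trophectoderm, which pumps fluid into the cavity and later forms placenta, and an inner cell mass that divides into epiblast and primitive endoderm. Gabpb1 encodes a subunit of the GA-binding protein (GABP), in which Gabpa, an ETS-family protein, binds DNA and the beta subunit activates transcription. GABP is known for promoters of nuclear genes that serve mitochondria. Alyref is an adaptor of the TREX complex, which hands finished mRNA to the export receptor.

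The promoters of Gabpa, of Alyref and of Tfam, the packaging and transcription factor of mitochondrial DNA, are shown as stretches that hold letters of an ETS site, chosen for that from the genes examined. The windows of Gabpb1 itself, of Gabpb2 and of Nrf1 hold 0 matches. The sequences are the 250 bases before the RefSeq start (build GRCm38.p6), 5′ to 3′ along the gene's strand, and capitals mark CCGGAAG or its reverse complement CTTCCGG, core letters of ETS sites.
Gabpa (chr16:84834874-84835123, plus strand): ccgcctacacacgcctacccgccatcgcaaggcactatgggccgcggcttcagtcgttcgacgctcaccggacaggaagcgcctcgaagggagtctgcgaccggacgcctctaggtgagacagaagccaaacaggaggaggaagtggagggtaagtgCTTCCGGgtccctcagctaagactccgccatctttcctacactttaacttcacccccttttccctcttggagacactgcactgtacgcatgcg
Alyref (chr11:120598366-120598615, minus strand): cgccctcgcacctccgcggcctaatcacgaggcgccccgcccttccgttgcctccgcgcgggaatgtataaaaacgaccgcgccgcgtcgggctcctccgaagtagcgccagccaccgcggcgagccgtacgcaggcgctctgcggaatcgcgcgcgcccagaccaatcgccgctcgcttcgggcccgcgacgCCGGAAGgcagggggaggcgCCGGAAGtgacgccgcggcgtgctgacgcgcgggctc
Tfam (chr10:71238045-71238294, minus strand): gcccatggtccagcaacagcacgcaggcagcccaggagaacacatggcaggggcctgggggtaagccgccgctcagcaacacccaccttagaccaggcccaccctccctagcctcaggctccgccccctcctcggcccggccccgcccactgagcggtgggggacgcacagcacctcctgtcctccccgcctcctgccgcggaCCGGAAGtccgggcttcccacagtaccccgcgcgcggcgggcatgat
Such letters occur on either strand in 2269 of 32851 RefSeq upstream stretches of this length (6.91%). The Alyref stretch holds 2 matches, that of Gabpa 1 and that of Tfam 1. No occupancy was measured, so a match is only a description. In windows of 300 bases that reach 50 bases past the start, 2910 of 32851 (8.86%) hold a match. Counted by gene, a match in any of its windows suffices, so such counts cannot be set beside that share of windows. By gene, 8 of the 12 matched genes of mitochondrial DNA expression hold a match. They are Mterf4, Ssbp1, Polg, Tfam, Polrmt, Tefm, Polg2 and Twnk. Among tested genes that matched a window, 1985 of 9551 (20.8%) hold a match, but only 52.0% of the tested symbols matched, so a comparison over all genes is void. Of the leading genes named below as higher or lower, 6 and 7 matched a window, and 0 of either hold a match.

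Levels are given as FPKM, counts scaled for gene length and library size, computed here from the deposited counts. Fold changes are log2 ratios of the Gabpb1 cross over the Alyref cross from edgeR, with their standard error (SE). Gabpb1 (chr2:126627442-126676337) was at 4.9, 5.26 and 5.98 FPKM in the Alyref cross and at 6.51, 5.78 and 10.3 in the Gabpb1 cross, with a log2 fold change of 0.49 (SE 0.34, 95% interval -0.24 to 1.22). Alyref (chr11:120592121-120598365) was at 48.4, 62.3 and 66.9 FPKM in its own cross and at 58.8, 65.5 and 80.6 in the other, a log2 fold change of 0.22 (SE 0.24, interval -0.3 to 0.74). Both genes thus had overlapping levels, and neither was lower in the cross that carries its deletion by more than the spread. Gabpa was at 29.1, 19.1 and 21.6 FPKM in the Alyref cross and at 32.1, 28.5 and 33 in the Gabpb1 cross (log2 fold change 0.42, SE 0.25). It overlaps a gene on the opposite strand, as do Gabpb1 and Gabpb2. Among the genes below, Lyrm7, Tnip1, Me1, Stk25, Actc1, Zfp971 and Gm14327 do so too, besides others. Without a strand setting the reads of such pairs cannot be told apart. The second beta subunit gene, Gabpb2, was lower in each Gabpb1-cross embryo (1.35, 1.64 and 1.41) than in any Alyref-cross embryo (1.89, 1.69 and 1.74 FPKM), with a fold change of -0.27 (SE 0.25) that did not pass the test. Nrf1, the other textbook regulator of nuclear genes for mitochondria, differed by 0.35 (SE 0.22).

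The Alyref-cross embryos had 31.5, 16.1 and 9.82 M counts over genes and the Gabpb1-cross embryos 11.7, 8.64 and 13.4 M, so precision differs within and between crosses. Trophectoderm keratin Krt18 was at 1790 to 2890 FPKM in the 6 blastocysts. In non-KO morulae it was at 163, 158 and 666 FPKM in the Alyref cross and at 1530 and 969 in the Gabpb1 cross. No marker of the epiblast, primitive endoderm or trophectoderm lists was at 0 in all 6 blastocysts. In whole embryos, fewer cells of a type and less RNA per cell cannot be told apart. The summed level of 12 cumulus cell markers was 1.82 to 3.73 FPKM in the Alyref cross and 2.63 to 5.15 in the Gabpb1 cross, mostly Amhr2, with Fshr at 0 in every blastocyst. The sum of 7 sperm and spermatid markers was 0.598 to 1.61 against 0.832 to 2.85 FPKM, with Tnp1, Spem1 and Akap4 at 0. The log2 ratio of embryo to ERCC counts, a measure of RNA per embryo, averaged 6.39 ± 0.44 (SD) in the Gabpb1 cross and 6.57 ± 0.12 in the Alyref cross. That difference of -0.18 was within the spread (p = 0.6, exact two-sided permutation test, smallest possible p 0.1). Sex-linked RNA differed between the groups. The sum of 5 Y-linked genes (Ddx3y, Eif2s3y, Kdm5d, Uty and Zfy1) was 61.5, 59.3 and 56.7 FPKM in the Alyref cross, and 68.5, 0 and 0.0144 in the Gabpb1 cross. Xist, the RNA that coats the inactive X chromosome, was at 0.648, 0.745 and 0.722 FPKM in the Alyref cross and at 0.424, 12.7 and 3.31 in the Gabpb1 cross. Every Alyref-cross embryo thus held Y-linked RNA, as did only the first of the Gabpb1 cross, and the part of sex in any difference was addressed only by a fit with Y-linked RNA as a covariate.

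**Figure D1:**
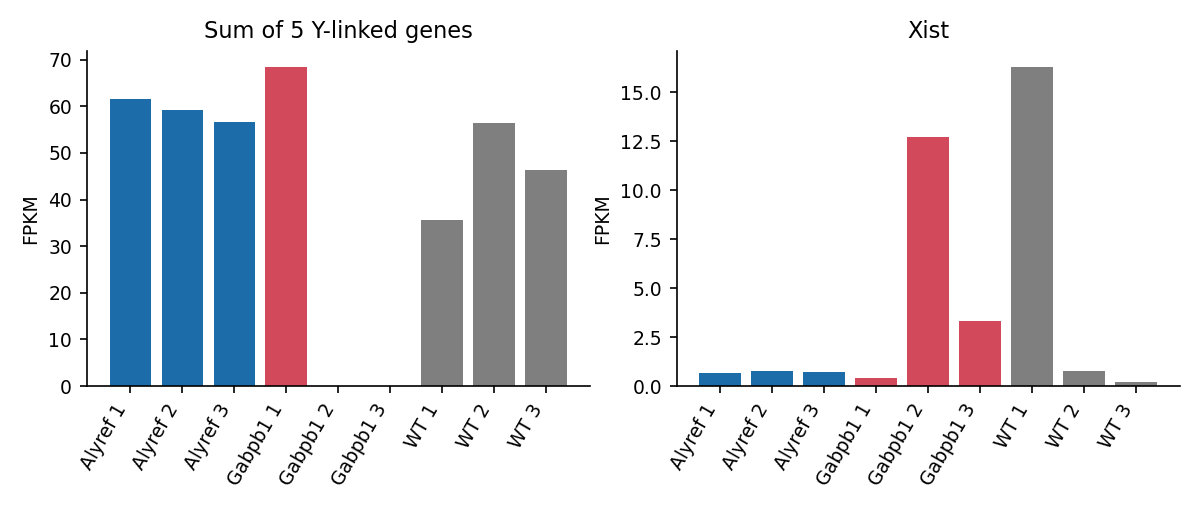
Summed FPKM of 5 Y-linked genes (left) and FPKM of Xist (right), 1 bar per blastocyst, for the Alyref cross (blue), the Gabpb1 cross (red) and WT (grey). Gabpb1-cross embryos 2 and 3 had almost no Y-linked RNA and 12.7 and 3.31 FPKM of Xist.

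No gene passed the test between the crosses. Of 18410 genes tested, 0 (0%) had an adjusted p under 0.05 in edgeR's quasi-likelihood test with Benjamini-Hochberg adjustment. An unadjusted p under 0.05 was seen for 646 (3.51%), 377 of them (2.05%) higher and 269 (1.46%) lower in the Gabpb1 cross. That share depends on the embryos in the fit. It was 7.49% with the 6 embryos alone and 7.18% with the 9 blastocysts alone, again with 0 genes called. The 3 embryos of one cross lay wholly beyond the other 3 in FPKM for 2423 genes (13.2%), 1069 higher (5.81%) and 1354 lower (7.35%) in the Gabpb1 cross. Fitted values were higher in the Gabpb1 cross for 9334 genes (50.7%) and lower for 8947 (48.6%). DESeq2 called 16 genes (0.0869%), one of them, Nxf2, on a single count in the 6 embryos. Limma voom with embryo weights called 5 (0.0272%), limma on log2(FPKM + 1) called 1 (0.00543%) and on log2(FPKM + 0.1) 2 (0.0109%), and edgeR without a filter on low genes called 1 of 39262 (0.00255%). The lowest adjusted p was 0.291, shared by Actc1, Reep6, Gm12250, AC165154.1 and Lyrm7. Of these, Reep6, Gm12250 and AC165154.1 were picked out after their values were seen. Actc1 and Lyrm7 were named by the rule of smallest p without overlap, which itself selects on the values. The median SE of a fold change was 0.98 for genes under 1 FPKM, 0.33 at 5 to 20 FPKM and 0.23 at 100 FPKM or more, so small differences were not detectable in weakly expressed genes.

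Among genes at 5 FPKM or more whose crosses did not overlap, Lyrm7 (chr11:54826866-54860916), which encodes an assembly factor for the iron-sulphur subunit of respiratory complex III, had the smallest p of those higher in the Gabpb1 cross. Its FPKM was 2.71, 2.14 and 5.55 in the Alyref cross and 13.4, 17.7 and 14.3 in the Gabpb1 cross, with 4.92, 5.29 and 5.86 in WT. Only the Gabpb1-cross embryos stood apart, the WT embryos lying with or near the Alyref cross. The log2 fold change was 2.17 (SE 0.41), and its adjusted p was 0.291 in edgeR, 0.00145 in DESeq2 and 0.0113 in limma voom, with a range of 0.00145 to 1 over 20 alternatives. Tnfrsf9 (chr4:150914562-150946102), a costimulatory receptor of the tumour necrosis factor family, was at 4.64, 4.29 and 4.64 FPKM in the Alyref cross, at 16, 29.3 and 28.5 in the Gabpb1 cross and at 9.32, 6.17 and 9.89 in WT. Its fold change was 2.45 (SE 0.6), and it lies across from Camta1 on the opposite strand, whose reads cannot be told apart without a strand setting. Me1, the cytosolic malic enzyme, was at 24.5, 19.6 and 23.2 FPKM in the Alyref cross and 43, 53.4 and 67.7 in the Gabpb1 cross. Its fold change was 1.29 (SE 0.39), but the WT embryos ran from 9.85 to 39.6 FPKM and so spanned the whole Alyref range. Tnip1, an inhibitor of NF-kappaB signalling that also lies on chromosome 11, was at 3.61, 5.28 and 7.19 against 10.7, 10.7 and 16.7 FPKM (fold change 1.27, SE 0.31). The kinases Stk25 and Dyrk3 had fold changes of 1.48 (SE 0.37) and 1.15 (SE 0.29), and Rdm1, an RNA-binding protein with a recombination-factor motif, 0.86 (SE 0.22). Rdm1 showed the opposite placing of WT, with 44.9, 53 and 36.5 FPKM, nearer to the Gabpb1 cross (46.9, 30.1 and 37.7) than to the Alyref cross (16.4, 22 and 25.4). The other names were the pseudogenes Gm7049 (1.41, SE 0.34) and Gm7329 (1.39, SE 0.36), whose reads may be shared with parent genes, and AC156572.1 (1.21, SE 0.33), a lincRNA overlapping Gm7049 on the opposite strand.

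Actc1 (chr2:114047282-114053548), the cardiac alpha actin, had the widest gap of the named genes. It was at 47.5, 9.06 and 11.3 FPKM in the Alyref cross and 14, 35.5 and 55.3 in WT, but at 0.158, 0.429 and 0 in the Gabpb1 cross, from 3, 6 and 0 counts. Both other groups varied several-fold among their embryos and none came near the Gabpb1 cross. The log2 fold change was -6.99 (SE 1.09, interval -9.36 to -4.62), and its size depends on those few counts. Its adjusted p was 0.291 in edgeR, 0.00461 in DESeq2 and 0.00129 in limma on log2(FPKM + 0.1), with a range of 0.00129 to 1 over 20 alternatives. Mrpl55, a protein of the large mitochondrial ribosomal subunit, was at 191, 178 and 154 FPKM in the Alyref cross, 111, 103 and 98.2 in the Gabpb1 cross and 182, 128 and 130 in WT (fold change -0.74, SE 0.21). Ubtf, a transcription factor of ribosomal RNA genes, was at 16.4, 16.4 and 17.3 against 12.3, 10.1 and 10.6 FPKM (-0.6, SE 0.18). Cr1l, a regulator of complement on the cell surface, was at 11.2, 10.1 and 9.8 against 5.68, 6.36 and 4.05 FPKM (-0.94, SE 0.27). Each of these 3 genes differed by less than a factor of 2 on average, with the embryos of a cross close together. Thap3 (-0.91, SE 0.26), Ggnbp2 (-0.53, SE 0.16) and the X-linked pseudogene Gm14719 (-0.96, SE 0.29) were also lower without overlap.

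The remaining 3 lower genes, Zfp971, Gm14327 and Gm14435, lie in an array of related KRAB zinc finger genes at the distal end of chromosome 2. Gm14435 was at 17.6, 35.5 and 11.4 FPKM in the Alyref cross, 10.8, 3.68 and 7.75 in the Gabpb1 cross and 9.55, 10.5 and 7.95 in WT, and the fold change was -1.55 (SE 0.47). Alyref-cross embryo 2 was high and Gabpb1-cross embryo 2 low in all 3 genes, with Zfp971 at 16.4 and 2.37 FPKM and Gm14327 at 27.2 and 2.87. In a stretch of 5 Mb around them, set after the values were seen, 66 of 81 tested genes had a lower fitted value in the Gabpb1 cross, with a median of -0.5, and 12 had an unadjusted p under 0.05 (14.8%, beside 3.51% of all genes), 0 of them higher. Genes of such arrays can share reads, so they do not count as separate observations.

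**Figure D2:**
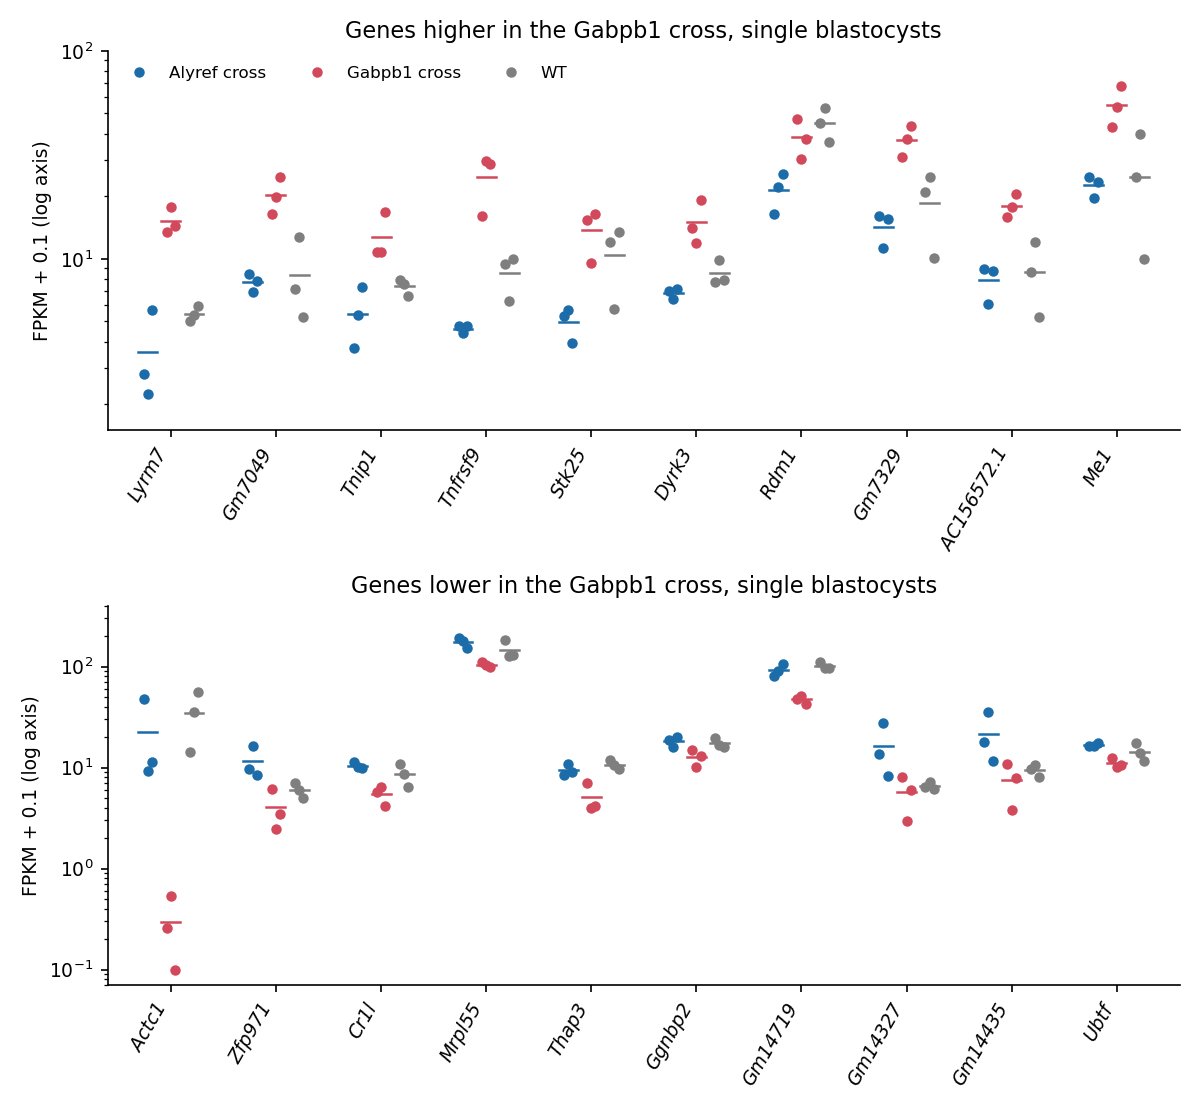
FPKM plus 0.1 on log axes for the 10 genes named as higher (top) and the 10 named as lower (bottom) in the Gabpb1 cross, 1 point per blastocyst and a line at each group mean, for the Alyref cross (blue), the Gabpb1 cross (red) and WT (grey). The genes were chosen because the crosses do not overlap, so the gap between blue and red is a description, and Actc1 shows the widest, 0 to 0.429 FPKM against 9.06 to 47.5.

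Genes under 5 FPKM, named after their values were seen, gave further gaps. Reep6, a shaper of endoplasmic reticulum membrane, was at 0.747, 1.39 and 0.732 FPKM in the Alyref cross and 3.95, 3.56 and 3.65 in the Gabpb1 cross (fold change 1.95, SE 0.36). The pseudogene AC165154.1 had 23, 13 and 23 counts in the Alyref cross and 0 in each Gabpb1-cross embryo, with 6.53, 4.33 and 3.08 FPKM in WT. Gm18118, also a pseudogene, had 0 counts in each Alyref-cross and WT embryo and 14, 14 and 17 in the Gabpb1 cross. Both pseudogenes therefore split the crosses as present or not detected. In non-KO morulae AC165154.1 was at 2.61, 1.51 and 1.76 FPKM in the Alyref cross and at 0 in the Gabpb1 cross. Gm18118 was at 0 in the Alyref-cross morulae and at 1.14 and 0.479 FPKM in those of the Gabpb1 cross. Grhl3, a transcription factor of surface epithelia and trophectoderm, was at 0.0455, 0.156 and 0.219 FPKM against 0.398, 1.66 and 0.671, but WT (0.719, 1.59 and 1.48) lay with or above the Gabpb1 cross. Wrn, the Werner syndrome helicase, was at 1.39, 1.19 and 1.25 FPKM against 0.292, 0.366 and 0.108 (-2.32, SE 0.56). Aspa, which cleaves N-acetylaspartate, had 2.26, 1.68 and 0.53 FPKM in the Alyref cross and 0.158, 0 and 0 in the Gabpb1 cross (-4.79, SE 1.32).

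Of the 20 chromosomes with at least 100 tested genes, chromosome 11, which carries Alyref, had the highest share of genes with an unadjusted p under 0.05. Chromosome Y, with 14 tested genes, had 2 (14.3%). On chromosome 11, 101 of 1426 tested genes (7.08%) had such a p, 45 higher and 56 lower in the Gabpb1 cross, beside 3.51% over all genes. The next chromosomes were 17 with 4.34% and 2, which carries Gabpb1, with 64 of 1505 (4.25%). Of those 64 genes, 12 lie in the distal zinc finger stretch described above, where genes can share reads. Lyrm7, Tnip1, Rdm1, Mrpl55, Ggnbp2 and Ubtf of the 20 leading genes lie on chromosome 11, and so do Gm12250, Aspa and AA465934, a transcript at 0.892, 1.14 and 0.716 against 5.4, 7.16 and 12.1 FPKM. The chromosome 11 genes were not concentrated at Alyref. Within 10 Mb of it, 7 of 177 tested genes (3.95%) had an unadjusted p under 0.05, while the stretch from 70 to 80 Mb held 20 of 182, 15 of them lower. Around Gabpb1 the count was 11 of 236 (4.66%). Chromosome 11 kept the highest share in each fit examined by chromosome except with spike-in scaling. There it had 2.24%, beside 1.55% of all genes, and ranked 3. In the fit of the 6 embryos alone its 11.4% stood beside another chromosome at 11.4% and beside 7.49% of all genes. With the Y-linked covariate it had 5.05%, beside 2.53% of all genes. Leaving out an embryo gave 4.14% to 7.22%. The lowest, without Gabpb1-cross embryo 3, stood beside 2.31% of all genes in that fit. The highest, without Gabpb1-cross embryo 1, stood beside 4.99%. Neighbouring genes do not vary independently, and this share was looked at with the values known, so no test is given. In the Gabpb1 cross against WT the chromosome 11 share was 7.22% beside 6.10% over all genes, and in the Alyref cross against WT 2.66% beside 2.94%. These 2 contrasts share the WT embryos, and each shares a group with the comparison of crosses.

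**Figure D3:**
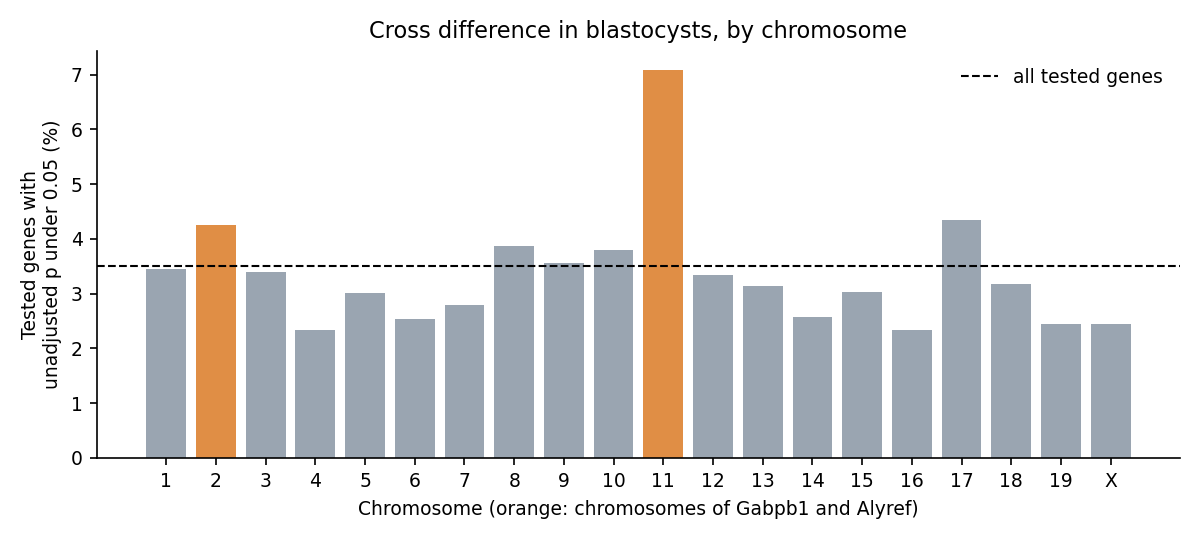
Share of tested genes with an unadjusted p under 0.05 between the crosses (y axis, %) for each chromosome with at least 100 tested genes (x axis), with the share over all tested genes, 3.51%, as a dashed line. Chromosome 11 stands at 7.08% and chromosome 2, with its distal zinc finger stretch included, at 4.25%.

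The p53 targets, genes that the tumour suppressor p53 switches on after stress or DNA damage, leaned to higher levels in the Gabpb1 cross. All 17 listed targets were tested, 17 had a higher fitted value and 0 a lower one, with a median log2 fold change of 0.75 beside 0.0062 over all tested genes. None passed the adjusted threshold, and 5 had an unadjusted p under 0.05 (29.4%, beside 3.51% of all genes). Ccng1, a cyclin-like p53 target, was at 55.3, 35.1 and 40.3 FPKM in the Alyref cross and at 43.2, 93.4 and 86.7 in the Gabpb1 cross (fold change 0.78, SE 0.35). Cdkn1a, the p21 inhibitor of cyclin-dependent kinases, was at 21, 10 and 28 against 10.6, 105 and 30.6 FPKM (1.35, SE 0.74). Gabpb1-cross embryo 1 thus lay within the Alyref range for both genes, and embryos 2 and 3 above it. Phlda3, a repressor of Akt signalling, followed that order with 20.6, 9.4 and 22.4 against 17.8, 31.9 and 46.5 FPKM (0.89, SE 0.4), and Trp53inp1 did so with 3.14, 2.47 and 3.46 against 2.56, 12.5 and 6.6 (1.29, SE 0.56). The cell death genes Bbc3 and Pmaip1, which encode Puma and Noxa, did not overlap between the crosses. Bbc3 was at 0.433, 0.439 and 0.432 against 0.522, 1.31 and 1.3 FPKM (1.26, SE 0.48), and Pmaip1 at 5.34, 1.76 and 1.15 against 5.9, 9.19 and 16 (1.86, SE 0.82). Sesn2, a stress-induced regulator of growth signalling, was the third without overlap, with a fold change of 0.43 (SE 0.31). These 3 are 17.6% of the list, beside 13.2% of all tested genes. Weaker differences were seen for Mdm2 (0.64, SE 0.37), Bax (0.28, SE 0.18) and Perp (0.12, SE 0.46), and Fas was at 0 FPKM in 5 of the 6 embryos.

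The summed FPKM of the 17 targets was 300, 331 and 338 in the Alyref cross, 341, 561 and 450 in the Gabpb1 cross and 280, 333 and 228 in WT. The 2 embryos with the highest sums are those with almost no Y-linked RNA, whose part in the result was addressed by the covariate fit alone. With the Y-linked covariate, 13 targets had a higher value and 4 a lower one, with a median of 0.42. Without Gabpb1-cross embryo 2 the median was 0.4 and 0 targets had an unadjusted p under 0.05, while without embryo 1 it was 1.07. Spike-in scaling, which moves the median of all genes to -0.13, gave 14 higher and 3 lower, with a median of 0.48. The voom fit gave 14 and 3, with a median of 0.3. Each of these settings except leaving out embryo 1 thus lowered the median by more than 1.5 times.

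**Figure D4:**
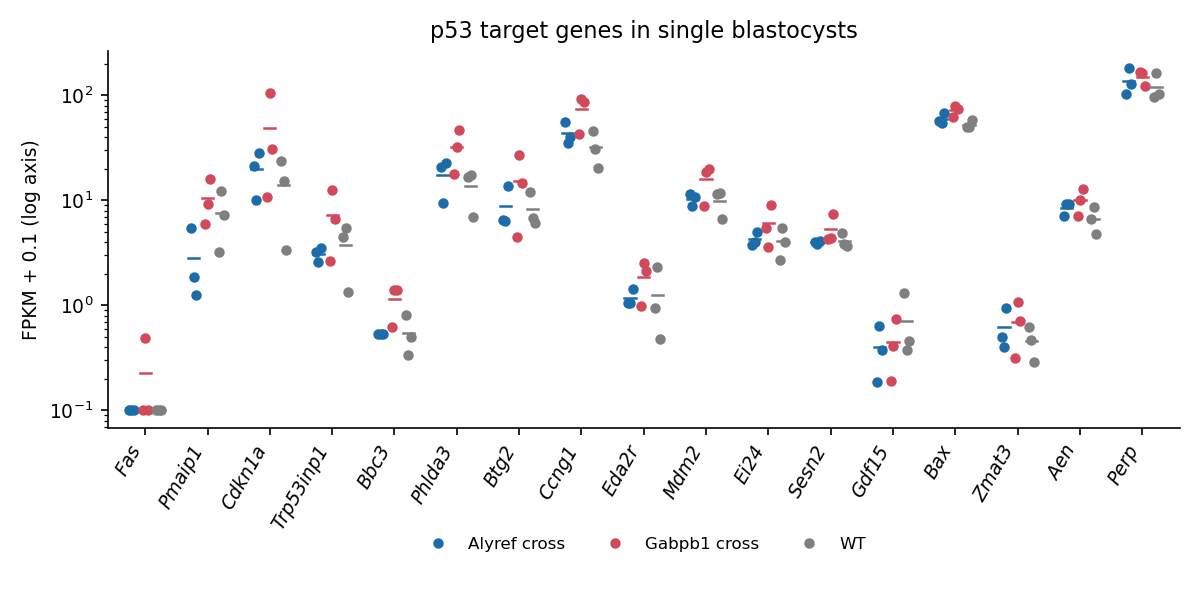
FPKM plus 0.1 on a log axis for 17 p53 targets, ordered by fold change, 1 point per blastocyst and a line at each group mean, for the Alyref cross (blue), the Gabpb1 cross (red) and WT (grey). For Cdkn1a, 1 red point lies at 10.6 FPKM within the blue range and the others at 30.6 and 105.

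Genes of mitochondria showed small differences in opposite directions. All 13 protein genes of mitochondrial DNA had a higher fitted value in the Gabpb1 cross, with a median of 0.29 and 0 at an unadjusted p under 0.05. Against WT their median was -0.0061 for the Gabpb1 cross and -0.31 for the Alyref cross. mt-Nd4, a subunit of complex I, was at 1680, 1500 and 1830 FPKM in the Alyref cross and 1980, 2390 and 1990 in the Gabpb1 cross (0.36, SE 0.28). It was the only one of the 13 whose crosses did not overlap (7.69%, below the 13.2% of all genes). mt-Nd2 was at 1410, 1060 and 1520 against 1210, 1990 and 2050 FPKM, with the first Gabpb1-cross embryo again inside the Alyref range (0.41, SE 0.23). These 13 genes come from shared precursor transcripts and count as 1 observation rather than 13. With spike-in scaling 10 were higher and 3 lower (median 0.079), and without Gabpb1-cross embryo 2, 11 were higher and 2 lower (median 0.13). The nuclear side leaned the other way. Of 78 genes for mitochondrial ribosomal proteins, 63 had a lower and 15 a higher fitted value, with a median of -0.12, 11 lay lower without overlap and 0 higher (14.1%, beside 13.2% of all genes), and 4 had an unadjusted p under 0.05 (5.13%, beside 3.51%). Both shares were near those of all genes. Beside Mrpl55 these were Mrpl17 (71.7, 60 and 72.8 against 56.8, 53.5 and 42 FPKM), Mrpl27 (118, 118 and 126 against 93.6, 89.8 and 86.5) and Mrpl13 (21.3, 21 and 23.1 against 18.5, 17.4 and 14.9). Their fold changes were -0.42 (SE 0.17), -0.41 (SE 0.19) and -0.35 (SE 0.16), and all 4 genes separated the crosses. The median of this list ran from -0.25 with spike-in scaling to -0.086 without Gabpb1-cross embryo 3. Of 91 nuclear genes of oxidative phosphorylation, 65 were lower and 26 higher, with a median of -0.052. The complex I assembly factors Ndufaf5 (13.9, 11.9 and 12 against 8.49, 3.82 and 8.62 FPKM, -0.85, SE 0.36) and Ndufaf3 (37.8, 34.6 and 34.3 against 27.9, 25 and 16.4, -0.62, SE 0.26) were the 2 members with an unadjusted p under 0.05 (2.20%, below the 3.51% of all genes). The abundant subunits Cox8a and Uqcr10 differed by -0.013 (SE 0.19) and -0.13 (SE 0.18). Without Alyref-cross embryo 1 the counts for this list were 46 lower and 44 higher, with a median of -0.0024. The 14 genes that copy, transcribe or package mitochondrial DNA split evenly, 7 higher and 7 lower, with a median of -0.0067. Tfam was at 11.4, 15.1 and 12.2 against 15.8, 8.03 and 16.5 FPKM (0.058, SE 0.3), and Polrmt, the mitochondrial RNA polymerase, at 1.56, 1.58 and 1.3 against 3.42, 1.09 and 2.83 (0.71, SE 0.36). Gabpb1-cross embryo 2 was the lowest of the 6 for both. Cytosolic ribosomal proteins had 55 of 82 lower, with a median of -0.044, but with the Y-linked covariate 38 were lower and 44 higher (median 0.015), and without Gabpb1-cross embryo 3 the median was 0.035.

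Of the lineage lists, the epiblast and pluripotency genes had 12 of 17 tested members higher and 5 lower in the Gabpb1 cross, with a median of 0.19 that ran from -0.17 to 0.36 over the alternatives. Nanog, which marks the epiblast, was at 45.9, 31 and 43 FPKM in the Alyref cross, 56.4, 72.1 and 73.2 in the Gabpb1 cross and 57, 39.2 and 45 in WT. The Gabpb1-cross embryos lay above all Alyref-cross embryos, with a fold change of 0.76 (SE 0.24) that did not pass the adjusted threshold. Pou5f1, which encodes Oct4, was at 24.3, 27.5 and 37.9 against 48, 36.5 and 67.5 FPKM (0.77, SE 0.24). Tdh, threonine dehydrogenase, was higher without overlap (8.25, 6.01 and 8.65 against 10.7, 11.1 and 12.3 FPKM) and Klf5 lower (77.6, 82.3 and 71.5 against 70.4, 62.7 and 56.1). Gabpb1-cross embryo 2 was the lowest for Sox2 (0.506 FPKM, the others 2.11 to 3.56), Tdgf1 (22.2 against 49.3 to 111) and Fgf4 (0.616 against 2.13 to 7.24). The same embryo had Dusp6, an FGF feedback phosphatase, at 2.11 FPKM, where the other 5 had 10.6 to 20.7, and Fos, an immediate early gene, at 8.66, where the others had 0.158 to 0.953. It therefore stood apart from its own group in several FGF-related genes, and the 10 tested members of that list had a median of 0.16 (-0.19 to 0.39 over the alternatives). Among abundant epiblast-list members, Dppa5a differed by 0.047 (SE 0.23), Dppa3 by 0.49 (SE 0.27) and Zfp42 by -0.11 (SE 0.24).

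Trophectoderm genes had 7 higher and 9 lower of 16, with a median of -0.15 that ran from -0.32 to 0.011 over the alternatives. Tfap2c, an AP-2 factor, was at 9.97, 10.7 and 11.7 FPKM in the Alyref cross and 13.3, 22.1 and 24.9 in the Gabpb1 cross (0.91, SE 0.28), while its relative Tfap2a went the other way, at 4.21, 4.31 and 4.38 against 2.51, 2.9 and 1.74 (-0.84, SE 1.04). Gata3, a trophectoderm factor, was at 60.2, 77 and 63.2 against 58.6, 38.9 and 52.8 FPKM (-0.41, SE 0.6), and Krt7 at 10.8, 11.9 and 8.3 against 1.8, 5.12 and 6.34 (-1.22, SE 0.72). Cdx2, the defining trophectoderm factor, overlapped (-0.19, SE 0.44), as did Krt8 (-0.24, SE 0.57) and Krt18 (-0.26, SE 0.72). Of 19 tested genes for the cavity and cell junctions, 13 were lower and 6 higher, with a median of -0.26, and the crosses did not overlap for 6 lower and 2 higher members (42.1%, beside 13.2% of all genes). None had an unadjusted p under 0.05 in the main fit (0 of 19). In the fit of the 6 embryos alone 5 did, beside 7.49% of all genes. With the 9 blastocysts alone 6 did, beside 7.18%, and with voom and embryo weights 4, beside 7.84%. None was called in these fits. Among the lower ones were the water channel Aqp3 (95.5, 131 and 87.4 against 70.6, 79.1 and 87 FPKM), E-cadherin (Cdh1; 53.5, 56.6 and 60.2 against 48.7, 35.6 and 36.2), the tight junction gene Tjp1 (6.1, 6.03 and 5.96 against 5.43, 4.7 and 3.17) and the desmosome gene Dsc2 (10.8, 10.5 and 12.3 against 9.65, 9.94 and 8.5). The higher ones were the tight junction genes Cldn6 (21.8, 13.6 and 25 against 40.7, 64.2 and 39.8 FPKM) and Ocln (7.87, 9.69 and 7.09 against 12.8, 13.4 and 13.9). Tight junction genes thus stood on both sides.

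Primitive endoderm genes split into 9 higher and 10 lower of 19, with a median of -0.0022. The early factor Gata6 was at 29.1, 26.9 and 31.6 against 35.7, 31.8 and 24.5 FPKM (0.081, SE 0.24). The matrix gene Col4a1 was at 3.13, 2.15 and 3.32 in the Alyref cross, 2.57, 0.93 and 1.93 in the Gabpb1 cross and 8.84, 9.85 and 11.1 in WT, so both crosses lay below WT. The list median was -1.28 for the Gabpb1 cross and -1.56 for the Alyref cross against the same WT embryos. In these contrasts edgeR called no gene (0% each), and 1123 and 541 genes had unadjusted p-values below 0.05.

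Among other pathways, the integrated stress response had 8 of 9 tested members lower, with a median of -0.53. Ddit3, which encodes Chop, was at 25, 32.5 and 27.6 FPKM in the Alyref cross and 14.6, 16.4 and 12.5 in the Gabpb1 cross (-0.96, SE 0.47). Trib3 was at 0.582, 7.19 and 2.3 against 0.442, 0.218 and 1.27, and Chac1 at 9.52 FPKM in Alyref-cross embryo 2 and at most 1.04 in the other 5. Asns, asparagine synthetase, was at 9.06 in Gabpb1-cross embryo 2 and at 42.5 to 73.1 in the others. For this list single embryos thus set several members apart, and its median ran from -0.77 to -0.35 over the alternatives. Of 14 tested imprinted genes, 9 were higher and 5 lower, with a median of 0.51. Phlda2, a maternally expressed gene that limits placental growth, was at 0.877, 0.0554 and 0.0909 FPKM in the Alyref cross and 1.37, 2.48 and 3.67 in the Gabpb1 cross, near WT at 2.81, 2.86 and 2.57 (2.66, SE 0.98). Ldha, lactate dehydrogenase, was at 10.4, 2.89 and 7.78 against 17.8, 18.2 and 59.3 FPKM (2.17, SE 0.9), while glycolysis genes as a list split into 8 higher and 8 lower. Cholesterol genes had 13 of 17 higher (median 0.32) with 0 non-overlapping members, beside 13.2% of all genes. Fdft1, squalene synthase, ran from 13.2 to 45.4 FPKM in the Alyref cross and from 26.9 to 48.4 in the Gabpb1 cross. Mitotic genes had 10 of 13 higher (median 0.2), among them Cdk1 at 75.6, 61.7 and 58.2 against 84.1, 99.1 and 80.2 FPKM (0.43, SE 0.37). Heat shock genes (8 tested, median 0.026) and Hippo pathway genes (15 tested, median 0.0021) stayed near the median of all genes.

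Genes of mRNA export, the process Alyref serves, had 9 higher and 11 lower of 20, with a median of -0.025. Alyref2, a paralogue of Alyref, was at 2.09, 1.81 and 2.24 FPKM in the Alyref cross and 2.82, 7.73 and 4.29 in the Gabpb1 cross (1.29, SE 0.5). Reads of related copies may be shared with Alyref itself. Ncbp3, a cap-binding protein, was at 1.8, 1.55 and 1.52 against 1.02, 0.819 and 1.01 FPKM (-0.77, SE 0.27). The TREX subunits Thoc1, Thoc2 and Thoc3 (-0.082, 0.068 and -0.0026) and the export receptor Nxf1 (-0.048, SE 0.23) were within 1 SE of no difference.

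**Figure D5:**
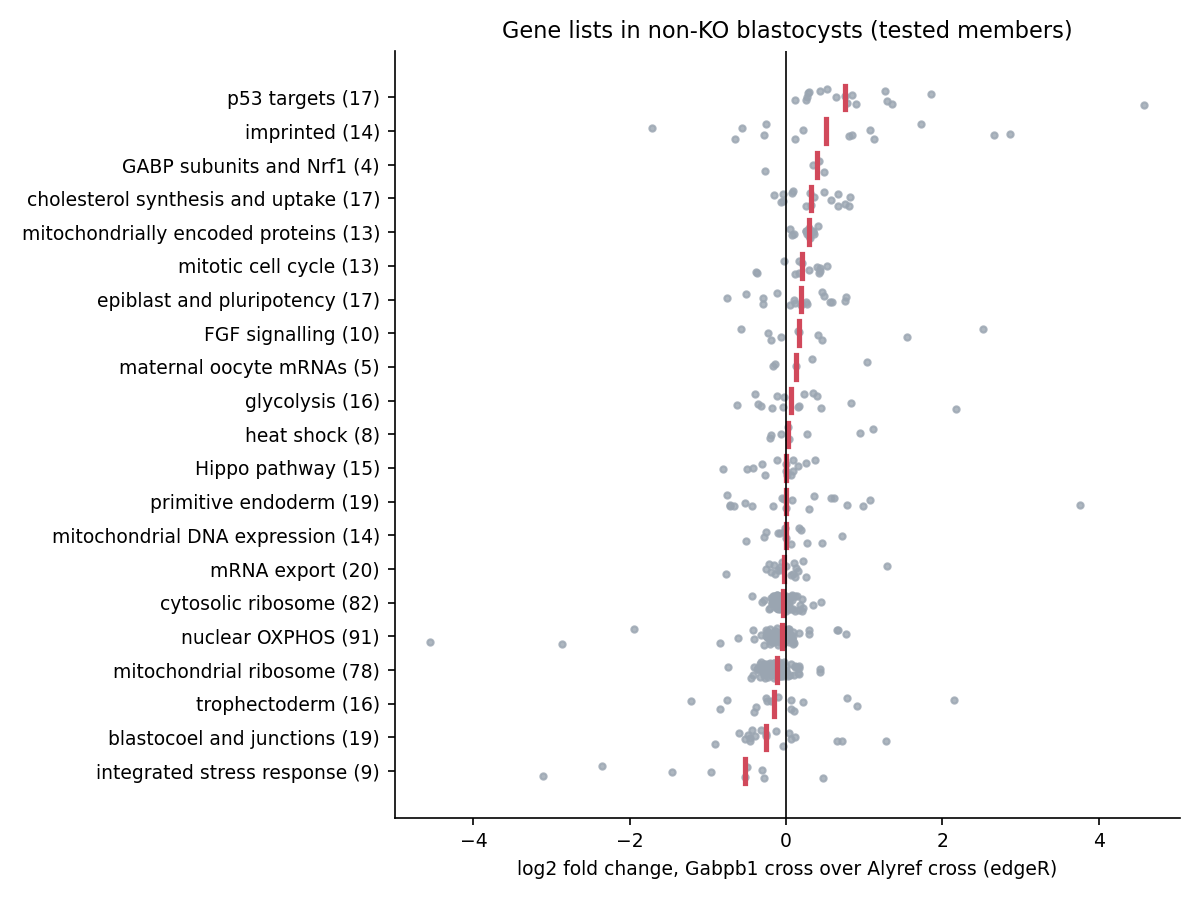
Fitted log2 fold change of the Gabpb1 over the Alyref cross (x axis) for each tested member (grey points) of 21 gene lists, with the median as a red bar and the number tested in brackets. The p53 targets have the highest median, 0.75, and the integrated stress response the lowest, -0.53.

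The crosses were also compared at the morula stage, which shares no embryo with the blastocyst comparison. Between non-KO morulae 342 of 18410 genes were called (1.86%) by edgeR's quasi-likelihood test with Benjamini-Hochberg adjustment, 218 higher and 124 lower in the Gabpb1 cross. Alyref-cross morula 2 and Gabpb1-cross morula 1 held Y-linked RNA (40.7 and 51.4 FPKM) and the other 3 almost none, so that the balance of sex-linked RNA differs between the stages. Trophectoderm genes were also unlike between the morulae, with a list median of 1.82 there and -0.15 in blastocysts. Whether the morulae of the crosses differed in developmental progress was not tested. In blastocysts 202 of these 342 genes had the same sign (59.1%, beside 50.4% of all tested genes), and 27 (7.89%) had an unadjusted p under 0.05. Their median absolute log2 fold change was 2.02 in morulae and 0.25 in blastocysts. Tnfrsf9 had a similar value at both stages, 2.45 in blastocysts and 2.36 in morulae (3.95, 3.1 and 5.04 against 22.1 and 22 FPKM), with an adjusted p of 0.0636 in morulae in the same edgeR test. Lyrm7 was at 3.16, 3.02 and 5.6 against 8.54 and 11.2 FPKM in morulae, a log2 fold change of 1.24. Nanog stood the other way round in morulae, at 160, 110 and 165 in the Alyref cross and 78.9 and 40.4 in the Gabpb1 cross (-1.38). The p53 targets had a median of 0.93 in morulae and 0.75 in blastocysts. On chromosome 11, 22.4% of tested genes had an unadjusted p under 0.05 in morulae, the same as the 22.4% over all genes. The difference between stages was itself tested, and 1 gene, Wls (0.00543%), was called, with 2534 genes (13.8%) at an unadjusted p under 0.05. The number called was 0 with the Y-linked covariate, with the replicate block, in both limma fits on log2 FPKM and in 4 of the 6 fits without an embryo. It was 336 with DESeq2, 1136 with voom and embryo weights, 8 without a filter on low genes and 2 after thinning.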

How the data were processed

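Polyadenylated RNA of single embryos was reverse transcribed, amplified over 16 PCR cycles and read as pairs of 50 and 25 bases, per the labels' protocols. The deposited table holds raw counts per gene, although its name announces FPKM: values are whole numbers and totals differ between embryos. Per the submitters' processing notes Trimmomatic, Trim Galore, cutadapt, STAR and featureCounts were used with mm10; versions and the strand setting are not given in the sources used here. The gene length used for FPKM (other) is the authors' deposited column. Library sizes leave out ERCC rows, which took 0.872% to 1.59% of the counts in the blastocysts.

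FPKM used unscaled totals. Genes at 1 FPKM or more in at least 2 of 19 embryos were tested (18410 of 39262 with a count) with edgeR 4.0.16 in R 4.3.3: quasi-likelihood F test, TMM, 7 group means over all 19 embryos, Benjamini-Hochberg adjusted p under 0.05. Alternatives were DESeq2 1.42.0, other scalings and filters, limma 3.58.1 on log2(FPKM + 1) or log2(FPKM + 0.1), voom with embryo weights, the blastocysts alone, a Y-linked covariate, thinning to 7.49 M counts, a replicate block and leaving out each embryo. Scripts were tested on simulated data.

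Named genes were Gabpb1, Gabpa, Gabpb2 and Alyref, the 10 genes in each direction with the smallest unadjusted p among those with a mean of 5 FPKM or more and no overlap between crosses (no gene being called), and the 3 most abundant members of each list, of which the text gives a part; other list members were named after their values were seen. The comparison, gene lists and tests were chosen with earlier results of these data known. Chromosome shares by setting, the chromosome 2 stretch and the genes under 5 FPKM were chosen after the values were seen. Lists are described by counts and medians, with no set test. Replicates of a cross differed by far more than sampling noise, with chi-square per degree of freedom from 19.7 to 53.9. Motif windows and sequences come from RefSeq promoters on GRCm38.p6.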

Additional observations from a re-analysis of the deposited data

Results flagged for a closer look

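Wls, which encodes a carrier needed for secretion of Wnt proteins, was the gene whose cross difference itself differed between stages. In blastocysts it was at 1.79, 2.96 and 0.776 FPKM in the Alyref cross and 0.446, 0.527 and 1.18 in the Gabpb1 cross, a log2 fold change of -1.37. In non-KO morulae it was at 0.0475, 0.00834 and 0.053 FPKM in the Alyref cross and 4.86 and 1.76 in the Gabpb1 cross, a log2 fold change of 6.35. The difference between the 2 fold changes was -7.72 (SE 1.01, adjusted p 0.0218 in edgeR's quasi-likelihood test with Benjamini-Hochberg adjustment), and it rests on the low values of the 3 Alyref-cross morulae. It was not called with the Y-linked covariate, with the replicate block or in either limma fit on log2 FPKM. Nor was it called without Alyref-cross embryo 1 or 2 or Gabpb1-cross embryo 1 or 2. The cause was not tested.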

How the results depend on the processing

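The count of 0 genes called between the blastocysts stayed at 0 in 15 of 20 alternatives, among them every fit without one embryo (0 in each, with 403 to 918 genes at an unadjusted p under 0.05). It was 16 with DESeq2, 1 without a filter on low genes, 1 and 2 with limma on log2(FPKM + 1) and log2(FPKM + 0.1), and 5 with voom and embryo weights. The stage difference, 1 gene, gave 336 with DESeq2, 1136 with voom, 8 without a filter, 2 after thinning, 0 in both limma fits, 0 with the Y-linked covariate and 0 to 1 when an embryo was left out. It was 0 without Alyref-cross replicate 1 or 2 or Gabpb1-cross replicate 1 or 2. The cause was not tested. Replicate numbers did not pair the embryos: deviations of same-numbered embryos correlated at -0.065, -0.149 and -0.0148, and no embryo number is tied to a shared source by the labels. With the replicate block, 0 genes were called between blastocysts (609 at an unadjusted p under 0.05) and 0 for the stage difference. The log2 ratio of gene to spike-in counts differed by -0.18, from -0.4 to 0.039 when an embryo was left out, and without Gabpb1-cross replicate 3 the sign reversed (0.039, exact permutation p = 1). Of 1953 values of 98 named genes under alternatives, 8 crossed to an adjusted p under 0.05, 40 others moved by more than 1 SE, and 116, from 37 genes, had the other sign, such as Ssbp1 (-0.12 to 0.12) and Xist (-0.82 with the Y-linked covariate). The 20 leading genes kept their sign in all 20 alternatives. They were chosen because the crosses did not overlap, which made a kept sign likely beforehand. Of 537 list medians, 37 moved. For 14 of 27 lists the median had the other sign in at least 1 alternative: epiblast, primitive endoderm, trophectoderm, Hippo, FGF, mitochondrial DNA expression, mRNA export, oocyte mRNAs, glycolysis, heat shock, Xist, strain, sperm and cytosolic ribosome; the two-cell median, 0, took both. Spike-in scaling shifts the median of all genes to -0.13, and 34.7% of genes are then higher in the Gabpb1 cross in place of 50.7%. Depth of 8.64 to 31.5 M counts and 3 embryos per cross limit what is detectable.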

Other observations

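WT blastocyst 1 had Y-linked RNA (summed level 35.7 FPKM) together with Xist at 16.3 FPKM, while WT blastocysts 2 and 3 had 56.4 and 46.3 FPKM of Y-linked RNA with Xist at 0.758 and 0.23 FPKM. Of the 3 genes tested as markers of the C57BL/6 and DBA/2 strains, Alad ran from 66.6 to 135 FPKM and Glo1 from 73.7 to 96.7 in the 6 cross embryos, with no separation by cross. The third, Nnt, part of which is deleted in C57BL/6J mice, was at 1.19, 1.44 and 0.926 FPKM in the Alyref cross and 0.558, 0.0822 and 0.521 in the Gabpb1 cross (-1.61, SE 0.95), without overlap. Oocyte mRNAs were mostly below the level tested, 5 of 16 passing the filter, among them Khdc3 at 379, 397 and 335 against 510, 384 and 321 FPKM. None of the listed Zscan4 copies, genes of the early cleavage embryo, passed the filter on low levels.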
